A study of Mus musculus with 81 samples.

Results

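During the first 36 h of reprogramming of mouse embryonic fibroblasts (MEF), bulk chromatin was profiled in a pair of arms at each time: in cells collected right after a label for newly copied DNA and in cells collected 2 h after it. This account sets these bulk arms side by side at 6 h, 12 h and 36 h. The members are all peaks of the 6 deposited bulk peak lists, 1039029 of the 3070128 peaks in all lists, from 18 of 81 samples (6 groups of 3). In each group the MEF carried a doxycycline-inducible cassette of the reprogramming factors Oct4, Klf4, Sox2 and c-Myc (Col1a1::tetOP-OKSM), the R26-M2rtTA activator and an Oct4GFP reporter, all heterozygous, on a background labelled Black6-129X1/SvJ at passages 2 to 3. All were induced with 2 µg/mL doxycycline in medium with LIF and 50 µg/mL ascorbic acid, and all were labelled with 20 µM of the thymidine analogue EdU for 10 min. The unchased arm was collected at that point, and the chased arm after further culture in 10 µM thymidine. The arms of a time thus differ in the thymidine and in the 2 h from label to collection, and these cannot be told apart. Times are those of the sample titles, so the arms of a time may also differ in time since induction. In both arms bulk means the tagmented DNA that the streptavidin capture of EdU-labelled DNA left unbound, so it is mostly DNA that was not being copied during the pulse, and in the chased arm it includes DNA copied during the chase. A site open in fewer cells and a site less open in every cell cannot be told apart in such material. How many animals gave the MEF, and whether the 3 samples of a group are separate cultures, is not given in the labels.

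Active promoters and enhancers are kept free of nucleosomes, and in ATAC-seq a transposase cuts preferentially there, so that peaks of cut DNA mark accessible sites. As the reprogramming factors act, fibroblast enhancers, many of them held open by the dimeric AP-1 factors of the Fos and Jun families, lose accessibility, while sites used in embryonic stem (ES) cells gain it. The octamer is the motif read by Oct4. Several genes of the Fos and Jun families are themselves immediate early genes, which respond rapidly and transiently to serum, stress and handling.

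The peak lists bear on the promoters below, shown for their bases before the annotated start (RefSeq windows, assembly GRCm38.p6, each read 5′ to 3′ on the gene's strand). Zfp42 encodes Rex1, a naive pluripotency marker, and was named by the rule for gene ends open in 1 arm only. Plet1, a surface protein of epithelial and stem cells, Stpg4, a gene for a sperm-tail repeat protein, and Upk3a, a urothelial membrane protein, were chosen after their values were seen. Capitals mark each match to the AP-1 motif TGANTCA or to the octamer ATGCAAAT, searched on both strands, so that the octamer also reads ATTTGCAT. A match is a description of the letters and not a measured binding site.
Zfp42, chr8:43307010-43307259, minus strand: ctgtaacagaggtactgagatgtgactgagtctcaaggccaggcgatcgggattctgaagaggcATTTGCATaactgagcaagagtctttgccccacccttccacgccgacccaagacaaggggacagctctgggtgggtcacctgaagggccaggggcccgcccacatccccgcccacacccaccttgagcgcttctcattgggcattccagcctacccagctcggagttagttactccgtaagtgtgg
Plet1, chr9:50494275-50494524, plus strand: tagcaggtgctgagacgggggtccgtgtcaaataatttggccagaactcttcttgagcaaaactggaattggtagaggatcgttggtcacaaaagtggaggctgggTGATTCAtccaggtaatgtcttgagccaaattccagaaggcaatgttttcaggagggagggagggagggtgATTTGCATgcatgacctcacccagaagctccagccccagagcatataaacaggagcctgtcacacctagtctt
Stpg4, chr17:87427742-87427991, minus strand: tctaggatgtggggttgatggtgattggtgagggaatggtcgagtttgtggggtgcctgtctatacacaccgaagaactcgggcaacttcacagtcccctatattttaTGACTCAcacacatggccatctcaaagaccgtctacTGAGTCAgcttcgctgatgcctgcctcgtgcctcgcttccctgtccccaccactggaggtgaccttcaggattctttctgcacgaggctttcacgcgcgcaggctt
Upk3a, chr15:85016891-85017140, plus strand: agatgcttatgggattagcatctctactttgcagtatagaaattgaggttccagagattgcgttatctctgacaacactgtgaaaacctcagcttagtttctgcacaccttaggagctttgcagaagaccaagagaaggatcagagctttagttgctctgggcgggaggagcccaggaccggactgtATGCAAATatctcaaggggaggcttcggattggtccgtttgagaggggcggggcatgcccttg

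A peak over the Zfp42 window was in the chased list alone at 6 h (score 229) and at 36 h (109), and in both lists at 12 h (137 unchased, 101 chased). The bulk list of naive ES cells had a peak of score 5032 at the same site. Plet1 had the same order, with 143 at 6 h and 204 at 36 h in the chased list alone and 350 and 125 in the unchased and chased lists of 12 h. The Stpg4 window, with 2 AP-1 matches, was in the chased list alone at all 3 times, with scores of 49, 50 and 35. Upk3a went the other way, in the unchased list alone at 12 h (112) and 36 h (60) and in neither list at 6 h. All of these are low scores: the lowest in the lists is 30, and scores here are the peak caller's, as the authors deposited them, and rank peaks only within their own list.

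The defining markers of fibroblasts were accessible in both arms. A peak lay within 1 kb of a gene end at 27 of 27 fibroblast and matrix genes in both lists at 6 h and at 12 h, and at 25 of 27 at 36 h. Markers of other cells were also accessible at part of their genes: 4 to 6 of 10 macrophage and blood genes, 6 to 7 of 10 endothelial genes and 10 of 12 muscle and neural genes had a gene-end peak in both lists. The part of other cells in the arm-only peaks was not tested. Each arm and time has 1 list made from 3 merged libraries, so no spread between replicates exists for the comparisons of lists. Shares are given with Wilson 95% intervals, which cover counting error only, and no source used here gives the read depth behind the lists.

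Most peaks were common to both arms, but the longer list changed sides with time. At 6 h the unchased list held 177275 peaks and the chased list 203188, at 12 h they held 199056 and 179656, and at 36 h 137173 and 142681. Counting an overlap of at least 1 bp as shared, 97.0% (95% interval 96.9 to 97.1) of unchased peaks were in the chased list at 6 h, 85.9% (85.8 to 86.1) at 12 h and 91.7% (91.6 to 91.9) at 36 h. In the other direction 84.0% (83.9 to 84.2) of chased peaks were in the unchased list at 6 h, 91.6% (91.5 to 91.7) at 12 h and 88.2% (88.1 to 88.4) at 36 h. The unchased-only peaks thus numbered 5271, 27993 and 11337 at the 3 times, and the chased-only peaks 32431, 15092 and 16786. At 6 h and at 36 h the chased arm held more private peaks, and at 12 h the unchased arm did. The side at 12 h was not stable. It turned to the chased arm with all 6 bulk lists cut to their 137173 highest peaks (10565 unchased-only against 13965 chased-only). It did so too with a common smallest width (18533 against 20285). With the cut to 137173 peaks the private peaks were also nearly even at 6 h (9297 against 9898) and at 36 h (13730 against 13771).

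As a yardstick, the overlap in base pairs (covered by both lists, as a share of that covered by either) was 78.3%, 73.4% and 79.1% between the arms at 6 h, 12 h and 36 h. Between lists of single untreated samples of the 14 h experiment, which are replicates of 1 group, it was 74.1% to 77.2%, and between the 6 h and 12 h lists of the same arm it was 66.7% (unchased) and 73.8% (chased). With each list cut to its 100000 highest peaks, 90.4% to 93.3% of peaks were shared between arms at equal times, 88.0% to 91.5% between the untreated replicates, and 83.7% to 86.6% between the 6 h and 12 h lists of the same arm. By shared peaks the arms of a time were thus closer than 6 h and 12 h within an arm, but by base pairs the arms at 12 h lay just below the replicates and just below the chased lists of 6 h and 12 h. The merged lists rest on more libraries than the single ones, and the labels give no EdU for the 14 h samples, so these values are not on equal terms.

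**Figure D1:**
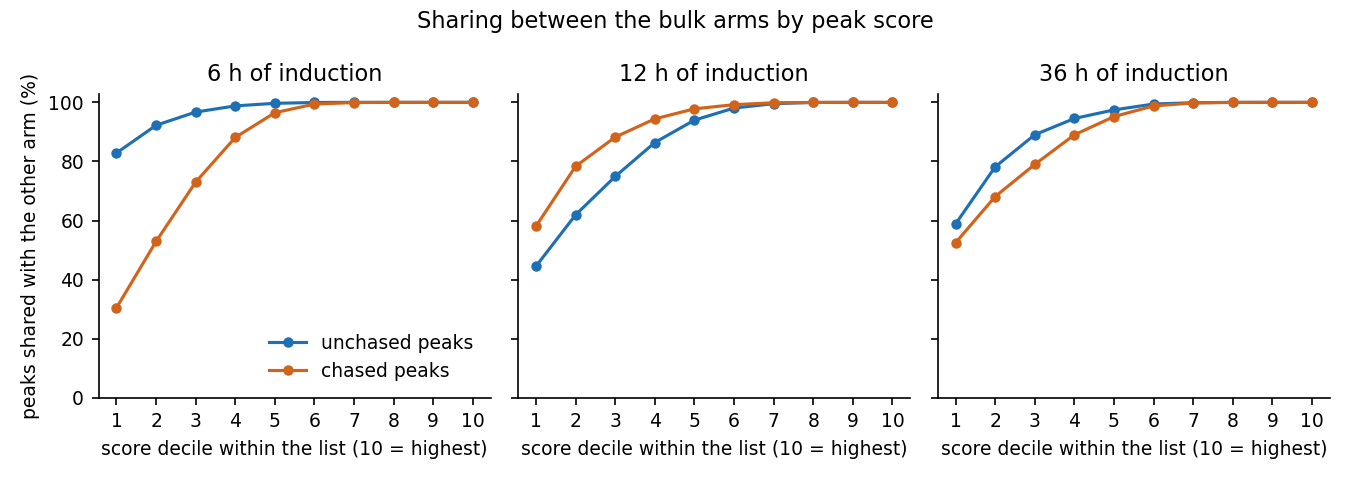
Share of each arm's peaks (vertical axis, percent) overlapped by a peak of the other arm, by score decile within the list (horizontal axis, 10 highest), at 6 h, 12 h and 36 h. The upper deciles are near 100% in both arms, and in the lowest decile the chased list falls to 30.5% at 6 h while the unchased list is at 82.9%.

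Sharing depended on the score of a peak. In the highest decile of scores 100% of peaks were shared in 5 of the 6 lists, and 99.98% in the unchased list of 12 h. In the lowest decile the share was 82.9% for unchased and 30.5% for chased peaks at 6 h, 44.6% and 58.1% at 12 h, and 58.8% and 52.5% at 36 h. Arm-only peaks had median scores of 98, 143 and 106 in the unchased lists and of 141, 124 and 121 in the chased lists, where shared peaks had 529 to 788 and 580 to 894. Widths differed in the same way, with medians of 160 to 221 bp for arm-only and 356 to 430 bp for shared peaks. Few arm-only peaks were shifted copies of a peak in the other arm: the median distance to its nearest peak was 2783 to 4190 bp, and 9.01% to 13.5% lay within 500 bp of one. At the edge of the overlap rule, 32 to 159 peaks a list were shared by 50 bp or less and 10 to 59 missed by up to 50 bp, and their median scores were 54 to 85 inside and 56 to 79 outside.

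Arm-only peaks lay away from gene ends. Within 1 kb of an end of a protein-coding gene model were 4.42%, 4.68% and 4.88% of unchased-only peaks at the 3 times and 4.31%, 4.67% and 5.46% of chased-only peaks, against 10.5% to 13.6% of shared peaks. The gap narrowed among peaks of equal score. For scores of at least 100 and below 200 in the same list, shared peaks were near a gene end more often by 1.21, 1.37 and 1.68 percentage points in the unchased lists and by 0.44 (95% interval -0.03 to 0.91), 1.11 and 1.79 points in the chased lists. In this band 3.59%, 4.09% and 4.28% of unchased-only peaks were near a gene end, and 4.80%, 5.46% and 5.96% of shared peaks in the unchased lists. In the chased lists these shares were 4.00%, 3.84% and 4.26% of chased-only and 4.44%, 4.95% and 6.05% of shared peaks. Most of the gap thus went with the score, but arm-only peaks stayed the less often near gene ends. Only for the chased list of 6 h is an interval given here, and it included 0.

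Some sites went against the low scores of arm-only peaks. The widest of the strongest arm-only peaks lay beside Egr1, an immediate early zinc-finger gene that serum and stress induce within minutes. At chr18:34865074-34866711, 118 bp beyond the higher-coordinate end of the gene model, the unchased list of 12 h had a peak 1638 bp wide with a score of 3152, above 86.2% of that list. The unchased lists of 6 h and 36 h had it as well (score 1701, 1870 bp wide, and score 918, 1343 bp wide), whereas the chased list had 2 peaks there at 6 h, the higher with a score of 85 and 271 bp wide, and none at 12 h or 36 h. Elsewhere in the reprogramming lists it was in the captured nascent DNA of 12 h (score 49) and in aphidicolin-treated replicates 2 and 3 of 14 h (65 and 107). It was in none of the 3 untreated samples of 14 h and not in ES cells at 0 h. The other Egr1 peaks of the locus were in both arms.

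A site within the gene model of Adamts12, a secreted protease of the extracellular matrix, was in the unchased list alone at all 3 times (chr15:11320399-11320721 at 36 h), with scores of 635, 1215 and 1079 and widths of 140, 132 and 323 bp. It was also in untreated replicates 1 and 2 of 14 h (545 and 313). A site 27957 bp from Cfl2, which encodes a muscle cofilin, was in the unchased lists at 554, 966 and 711, in untreated replicates 1 and 2 (477 and 507) and in ES cells (1476). Further sites of the unchased arm at all 3 times lay near Eid2, Adh7 and Fam207a, with scores of 297 to 726.

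The 12 h unchased list also had very narrow, very high peaks. Its highest unchased-only peaks were at Tra2a, a splicing regulator (10180, 134 bp, chr6:49236451-49236584), in Il31ra, a cytokine receptor (9121, 130 bp), at Fcgr3, an immunoglobulin receptor of blood cells (8306, 136 bp), and at Eapp, a regulator of E2F factors (7087, 143 bp). Of 52 unchased-only peaks at 12 h with a score of at least 1000, 23 were narrower than 150 bp, and the other 5 lists had no arm-only peak of that kind. This list admitted narrower peaks, with a smallest width of 125 bp against 147 bp in the chased list of 12 h. The smallest width was 138 bp in both lists of 6 h, and 155 and 149 bp in the unchased and chased lists of 36 h. Peaks narrower than 150 bp numbered 17614 here, 6436 (unchased) and 7116 (chased) at 6 h, 1507 in the chased list of 12 h, and 0 and 426 at 36 h. The lack of such arm-only peaks in the other lists was thus partly set by these limits. The Il31ra site was in all 6 single samples of 14 h (3404 to 5402), the Fcgr3 site in untreated replicates 1 and 2, and the Tra2a site in untreated replicate 1 (4581). The Eapp site was in both arms at 6 h (4657 unchased, 5679 chased).

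The strongest chased-only peaks stood above 65.1% to 73.8% of the peaks of their lists. At 6 h they lay in Slc6a4, the serotonin transporter (1672, 153 bp), near Pdia6, a protein disulfide isomerase (1446), in Sytl3 (1305), near Dynlt1b (1282) and near Iqub (1202). The Pdia6 site was in both arms at 12 h (1605 unchased, 1257 chased), while the Slc6a4, Sytl3 and Dynlt1b sites were in none of the other bulk lists. At 12 h the strongest chased-only peaks were wider, 320 to 565 bp. They lay within Macf1 (1509), Arhgap26 (1470) and Ubr1 (1397), near Rnaset2b (1406) and within both Gigyf2 and Kcnj13 (1175). The sites other than that of Rnaset2b were in all bulk lists but the unchased one of 12 h. At 36 h they lay near Tmem250-ps (1238), in Atp2c1 (1054), near the class II antigen gene H2-Aa (982), near the linker histone gene H1f4 (905) and near Mrgbp (905). Each of these had a peak in both arms at 12 h, so what set it apart at 36 h was its absence from the unchased list.

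Chased-only sites recurred more often at the next bulk time. Of the peaks of 6 h, 61.8% (61.3 to 62.3) of the chased-only ones were found in a bulk list of 12 h against 38.3% (37.0 to 39.6) of the unchased-only ones, a difference of 23.5 points. Of those of 12 h, 40.7% (39.9 to 41.5) against 17.8% (17.4 to 18.3) were found at 36 h, a difference of 22.9 points. Shared peaks of 6 h and 12 h were found at the next time in 92.5% and in 79.8% of cases. The 6 h chased-only sites appeared about equally in both arms of 12 h (48.4% chased, 50.9% unchased), whereas the unchased-only ones were in 18.6% of chased and 34.2% of unchased cases. Within scores of at least 100 and below 200 the differences were 23.2 and 22.2 points. This band does not match strength between the arms, because scores rank peaks only within their own list. At 6 h the lowest decile ended at a score of 110 in the unchased list and 129 in the chased list. With a reciprocal overlap of 50% the difference from 6 h to 12 h was smaller, at 13.7 points (59.1% against 45.3%).

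From 36 h to 60 h the order was the reverse. The 60 h lists come from cells sorted into fractions Q1 to Q4 by a dye that is diluted at each division, and 10.4% (9.87 to 11.0) of the unchased-only peaks of 36 h were in any of them against 3.98% (3.69 to 4.29) of the chased-only ones. In the separate fractions the shares were 6.25%, 4.28%, 6.20% and 2.00% of unchased-only and 2.32%, 1.27%, 2.29% and 0.80% of chased-only peaks in Q1 to Q4. Shared peaks were found at 60 h in 61.9% to 62.0% of cases. Unchased-only peaks of 36 h were thus found more often than chased-only ones in each of the 4 fractions, although most of either class was not seen at 60 h. The difference of -6.44 points (chased-only minus unchased-only) was -2.59 points with lists of equal length (2.12% against 4.71%) and -3.82 points with a reciprocal overlap of 50%.

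**Figure D2:**
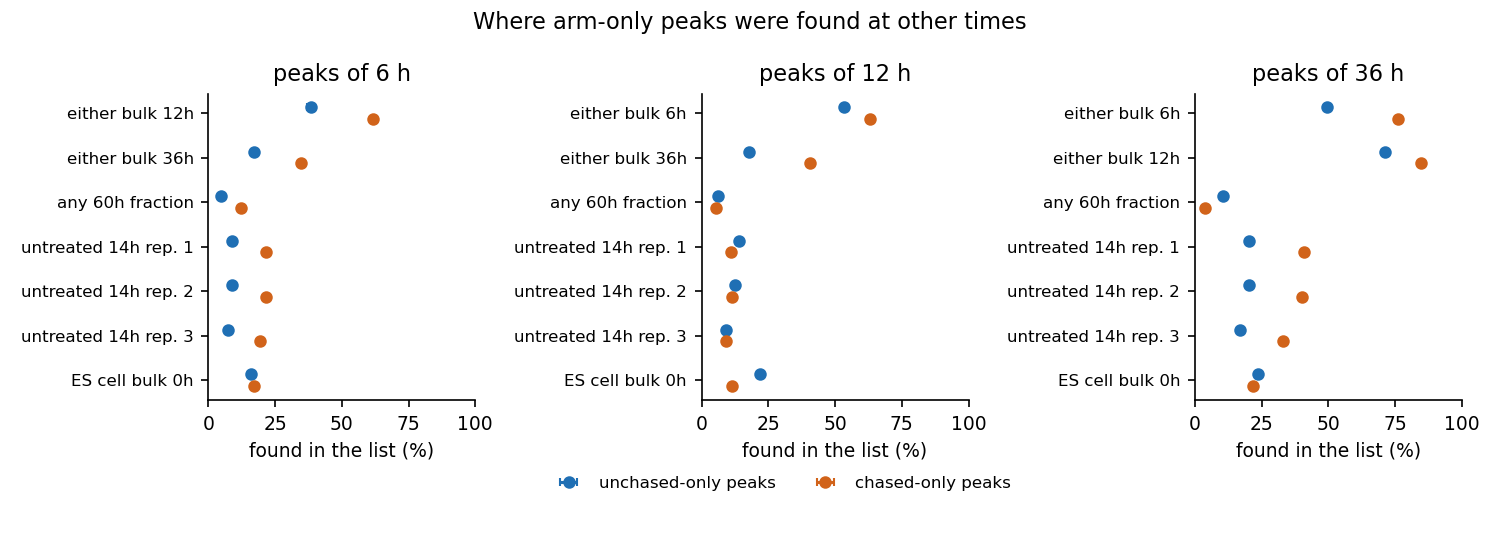
Share of unchased-only (blue) and chased-only (orange) peaks of 6 h, 12 h and 36 h found in the lists named on the vertical axis (horizontal axis, percent; Wilson 95% intervals lie within the points). Chased-only peaks stand to the right for the bulk lists of other times, and unchased-only peaks of 36 h stand to the right for 60 h.

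Looking back, chased-only peaks of 36 h were the more often present at the earlier times. Of these, 76.2% (75.5 to 76.8) had a peak in a bulk list of 6 h and 84.9% (84.4 to 85.5) at 12 h, against 49.5% (48.6 to 50.4) and 71.1% (70.3 to 72.0) of unchased-only peaks. The difference at 6 h, 26.6 points, was 15.9 points with a reciprocal overlap of 50% (56.1% against 40.2%) and 35.5 points with lists of equal length (62.5% against 27.0%). In the 3 untreated samples of 14 h the chased-only sites of 36 h were found in 40.8%, 40.0% and 33.2% and the unchased-only ones in 20.4%, 20.3% and 16.9%. The ranges over the samples did not overlap.

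The classes also differed in overlap with naive ES cells. At 12 h 22.1% (21.6 to 22.6) of unchased-only and 11.5% (11.0 to 12.1) of chased-only peaks had a peak in the bulk list of ES cells at 0 h. At 6 h (16.0% and 17.2%) and at 36 h (23.7% and 22.0%) these shares were closer. Among 12 h peaks with scores of 500 or more the shares were 43.1% of 923 unchased-only and 14.8% of 283 chased-only peaks. The DNA captured through EdU 2 h after labelling at 12 h, taken from the same chase, had a peak at 4.06% (3.76 to 4.39) of chased-only and 0.24% (0.19 to 0.30) of unchased-only sites.

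Few sites belonged to 1 arm throughout. Merging the 6 lists gave 242345 regions, of which 101339 were in both arms at all 3 times. Private status at some time was common, with 89940 regions, but 75079 of these were in a single arm at exactly 1 time, and 7424 were private to different arms at different times. Regions private to the chased arm at all 3 times numbered 292, and those private to the unchased arm 51. Of the latter 43.1% had a peak in ES cells, close to the 44.9% of regions in both arms at all times, whereas of the former 16.1% did. The strongest in the chased arm lay near Itga11, a collagen-binding integrin (358, 419 and 362 at the 3 times), in Fbxw11, a ubiquitin ligase subunit (420, 283 and 273), near Tfe3 on X, in Btaf1 and in Smim3. The chased-only regions were in 11.3% to 17.8% of cases in the untreated samples of 14 h and in 36.0% to 43.2% after aphidicolin. The unchased-only regions were in 17.6%, 17.6% and 1.96% of cases untreated and in 19.6%, 29.4% and 25.5% treated. Regions in both arms at all times rose as well, from 83.5% to 85.6% untreated to 91.2% to 94.4% treated. The treated lists were longer, and these regions were not compared with lists of equal length.

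Genes were compared by their loci, the gene model with 10 kb on each side, calling a gene where 1 arm had a net excess of at least 2 private peaks. At 6 h 0.397% of 18620 genes with a bulk peak were called for the unchased arm and 24.9% for the chased arm. At 12 h these shares were 16.2% and 4.43% of 18665, and at 36 h 3.47% and 10.6% of 18312. Gene ends differed less: a gene-end peak in the unchased list only was at 0.328%, 2.06% and 0.928% of genes at the 3 times, and in the chased list only at 1.91%, 0.707% and 1.32%. Calls followed the length of the lists, and when both lists of a time were cut to the same number of peaks the calls were 915 unchased and 1492 chased at 6 h, 1089 and 2309 at 12 h, and 1101 and 1243 at 36 h. At 12 h the majority thereby moved from the unchased to the chased arm.

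Long genes with many peaks led these calls. At 6 h the largest chased excess was at Ctnna2, an alpha catenin of neurons, with 30 chased-only and 2 unchased-only peaks, followed by Tenm2, Gpc6, Ptprg and Pde4d (net 25 to 27 peaks). At 12 h the largest unchased excess outside gene copies was at Tenm4, a teneurin (22 against 2), followed by Tln2, a talin of focal adhesions (18 against 1), Foxp1 and Rbms3. At 36 h the chased excess was largest at Pde4d (20 against 4) and at Frmd4a (16 against 1), and included Runx2, the osteoblast regulator, with 12 against 1. The unchased excess at 36 h was largest at Ptprd (14 against 3). Runx1, Runx2 and Tead1, mesenchymal regulators that recruit or partner with AP-1, had a chased excess of 10, 7 and 3 peaks at 6 h and of 2, 11 and 8 at 36 h. At 12 h Tead1 had an unchased excess of 6 (10 against 4), and Runx1 and Runx2 were nearly even, with 3 unchased-only against 4 chased-only and 8 against 7 peaks.

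Of the 21883 genes, 5 had a net unchased excess of at least 2 peaks at all 3 times (Nell2, Sp110, Nyap2, Lama1 and Tpm3), and 110 a chased one. This call over the 3 times was not run with lists of equal length. Among the latter were Cdk6, the kinase that drives entry into S phase, with 5, 5 and 4 chased-only peaks at 6 h, 12 h and 36 h against 0, 1 and 0 unchased-only ones, and E2f3, a transcription factor of S phase genes, with 7, 6 and 3 against 0, 1 and 0. Tmtc1 (8, 5 and 6 against 0, 1 and 1), Cntnap2, Cfap20dc, Erc1, Mosmo, AW554918 and Fchsd2 were also named by the size of their smallest excess. Gene ends open in a single arm at all 3 times were those of Kcnq1 in the unchased arm (64, 124 and 40) and of Unc79, Stpg4 and 1700102P08Rik in the chased arm. All of these had low scores, at most 200.

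**Figure D3:**
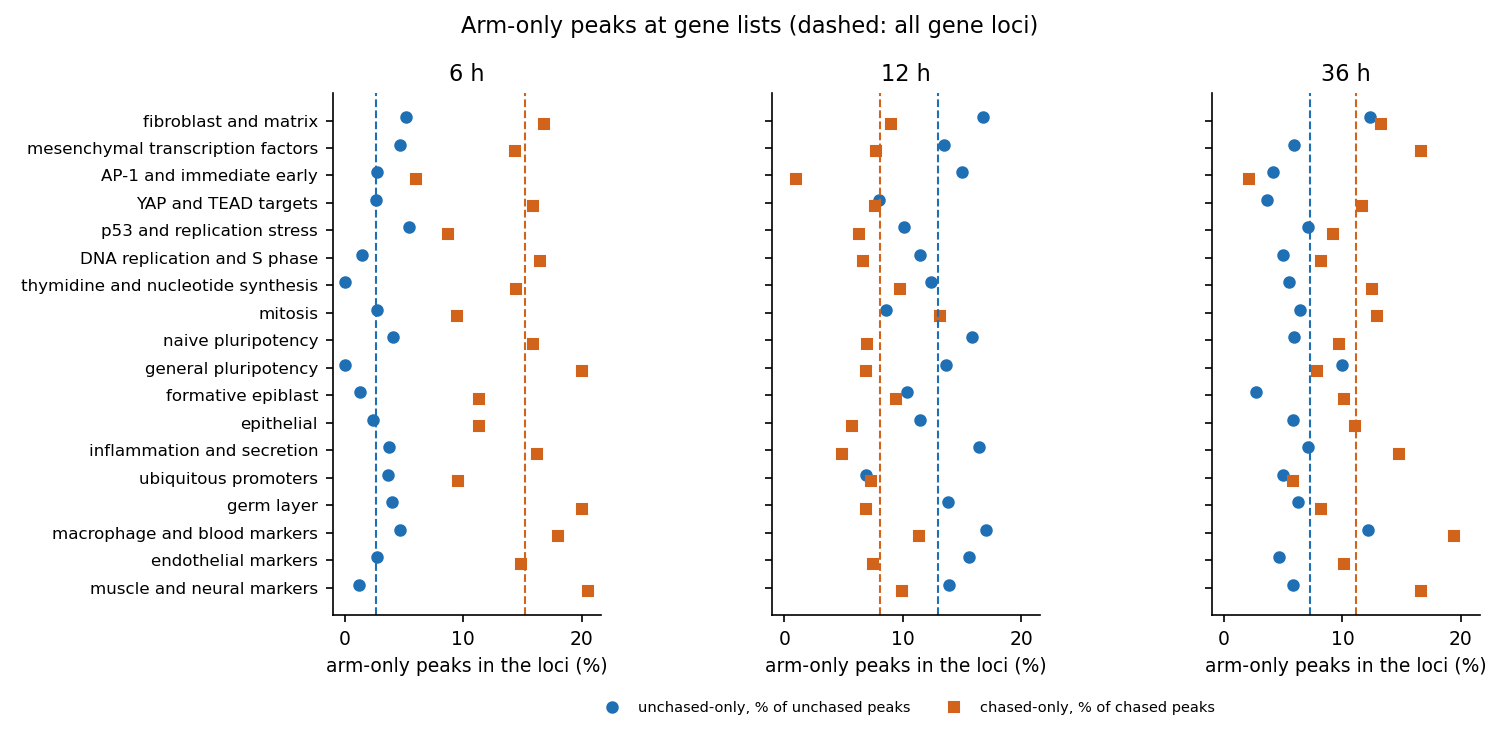
Share of peaks in the loci of 18 gene lists that were private to the unchased arm (blue circles, percent of unchased peaks) or the chased arm (orange squares, percent of chased peaks) at 6 h, 12 h and 36 h, with the shares over all gene loci dashed. AP-1 and immediate early loci have chased-only shares of 6.03%, 0.95% and 2.08%, below the dashed lines at 15.2%, 8.09% and 11.1%.

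Of the 18 gene lists, AP-1 and immediate early genes had the smallest chased-only share at each time. Their 18 loci held 127 unchased and 105 chased peaks at 12 h, of which 19 were unchased-only (15.0%, over all genes 13.0%) and 1 chased-only (0.95%, over all genes 8.09%). The chased-only peak was within Fosl2 (score 77). At 12 h 4 of the 18 genes had a net unchased excess of at least 2, beside 16.2% of all genes, and 0 had a chased one, beside 4.43%. At 6 h the same loci held 3 unchased-only and 7 chased-only peaks, and at 36 h 4 and 2. The balance at 12 h was 32 against 10 when sharing needed a reciprocal overlap of 50%, 19 against 0 among scores of at least 100, 13 against 2 with lists of equal length and 13 against 3 with a common smallest width.

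A peak within 1 kb of a gene end was in both lists at 18 of the 18 genes at 6 h and 12 h and at 17 at 36 h, with 1 in neither list. The private sites were within the gene models or in the 10 kb beside them. At 12 h Jun had sites of score 474 (160 bp) and 276 (326 bp) in its gene model that were in the unchased list alone, beside a promoter-proximal region of 2213 bp with scores of 5879 and 5409 in the unchased and chased lists. Fosb, a Fos family member, had an unchased-only site of score 828 in its gene model, and Junb one of 675 within the 10 kb beside it. Atf3, a stress-induced partner of Jun, had 2 (176 and 95), Fosl1 and Fosl2, which encode the Fra proteins, had 2 each (198 and 265, 352 and 133), and Egr3, Ier2, Maff, Nr4a1, Jund and Batf had 1 or 2 each, with scores of 63 to 185. The Myc site (106) lies in the gene model, where the induced cassette carries the same coding sequence. Of the 19 sites, 3 to 5 were in an untreated sample of 14 h, 6 to 8 in an aphidicolin-treated one and 6 in ES cells.

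Most other lists held more private peaks in the arm that led over all genes at that time. Exceptions were the loci of mitosis genes (7 unchased-only, 11 chased-only) and of ubiquitous promoters (8 and 8) at 12 h and those of general pluripotency genes at 36 h (5 and 4). At 6 h 10 of 27 fibroblast and matrix genes, 8 of 16 mesenchymal transcription factors and 8 of 12 YAP and TEAD targets had a net chased excess, beside 24.9% of all genes, and no gene of these lists had an unchased one. By peaks these lists lay near all genes. Of the chased peaks at their loci 16.8%, 14.4% and 15.9% were chased-only at 6 h, over all genes 15.2%. Ajuba, an adaptor that restrains the Hippo kinases, had a chased excess at each time, with 5, 3 and 2 chased-only and 0 unchased-only peaks. At 12 h 8 of 27 fibroblast genes had an unchased excess, beside 16.2% of all genes, such as the smooth muscle actin gene Acta2 with 5 against 0, and 1 had a chased one, while of the YAP and TEAD targets 4 had an unchased and 4 a chased excess. At the fibroblast loci 16.8% of the unchased peaks were unchased-only at 12 h, over all genes 13.0%. The cells' own Col1a1, Pou5f1, Sox2, Klf4 and Myc loci can share reads with the cassette or its integration site, so their values are uncertain: Col1a1 had 4 chased-only and 0 unchased-only peaks at 6 h and 0 against 1 at 12 h.

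The lists of cell cycle genes held more chased-only than unchased-only peaks at 6 h and 36 h, as all genes did. At 12 h they differed in side. Of 17 mitosis genes none had a net excess of 2 in either arm at 6 h, and at 12 h their loci held 8.54% unchased-only and 13.1% chased-only peaks, where all loci together held 13.0% and 8.09%. Bub1, a spindle checkpoint kinase, had 1 against 3. Of 27 DNA replication genes 4 had a chased excess at 6 h, a smaller share than the 24.9% of all genes. By peaks, 16.5% of the chased peaks at their loci were chased-only at 6 h, over all genes 15.2%. The largest excess was at Pola1 on X, the catalytic subunit of the polymerase that primes replication (0 against 8). Of 14 genes of thymidine and nucleotide synthesis, the supply of DNA precursors, 4 had a chased excess at 6 h (24.9% of all genes), among them Dut (0 against 3) and Rrm2 (0 against 2). At 12 h 2 had an unchased excess (16.2% of all genes) and none a chased one, and at 36 h 2 had a chased excess (10.6% of all genes), so the counts of this list lay near the shares over all genes. Tk1, the kinase that phosphorylates thymidine and EdU, had 0 private peaks at 6 h and 1 chased-only peak at 12 h and at 36 h. Ubiquitous promoters were in both arms at 19 of 20 genes at each time.

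Naive pluripotency genes were mostly closed or alike. Of 17, a gene-end peak was in both lists at 7, 8 and 8 genes and in neither at 8, 7 and 8. Besides Zfp42, Prdm14, a regulator of naive pluripotency and germ cells, had a gene-end peak in the unchased list alone at 2 times. These were separate peaks, chr1:13126890-13127047 at 6 h (score 44) and chr1:13126530-13126728 at 12 h (score 49), with scores near the lowest of 30. At 36 h a peak over both places was in both lists (99 unchased, 121 chased). Esrrb, an orphan receptor of the naive network, had 5 chased-only and 1 unchased-only peaks in its locus at 6 h, 0 and 2 at 12 h and none at 36 h. Nanog had none at any time. Cdh1, the epithelial cadherin, had 3 chased-only peaks at 6 h, 2 unchased-only at 12 h and 2 chased-only at 36 h, so its side followed the longer list.

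Unchased excesses also lay in gene families with near-identical copies, where the assignment of reads is uncertain. In the Sp100 family cluster (chr1:85078139-85719998), genes of antiviral nuclear bodies, the unchased list had 29 peaks and the chased list 10 at 6 h, and 37 and 10 at 12 h, while at 36 h they had 20 and 27. Of the unchased peaks 21 were private at 6 h and 27 at 12 h. At Sfi1 on chromosome 11, a centrosome gene, the lists had 45 and 20 peaks at 12 h, with 24 and 1 private, but 28 and 30 at 6 h and 30 and 30 at 36 h.

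Chromosome X held more chased-only peaks at the early times. Of its chased peaks 19.9% (18.9 to 21.01) were chased-only at 6 h, where autosomes had 14.7% to 16.6%, and 11.4% (10.5 to 12.3) at 12 h, where autosomes had 7.37% to 9.38%. With lists of equal length the excess of X over the autosomes fell from 4.08 to 1.62 points at 6 h (10.2% against 8.55%) and was 4.62 in place of 3.05 points at 12 h. At 36 h the share on X was 10.4% (9.49 to 11.5), below the autosomes (11.2% to 12.5%). Unchased-only shares on X (2.71%, 14.3% and 9.73%) were within the range of the autosomes at 6 h and 12 h (2.57% to 3.49% and 13.3% to 14.9%) and above it at 36 h (7.64% to 8.96%).

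Promoter windows private to the chased arm at 36 h held AP-1 motifs most often. Of 32851 RefSeq windows of 250 bases before to 50 after a start, 7.81% held TGANTCA and 1.74% the octamer on either strand. At 36 h the AP-1 motif was in 66 of 350 windows with a peak in the chased list only, 18.9% (15.1 to 23.3), and in 22 of 247 with a peak in the unchased list only, 8.91% (5.96 to 13.1), a difference of 9.95 points (4.31 to 15.3). Windows with a peak in both lists had 5.92% and those with none 9.31%. Their base composition was alike, with a median GC content of 52.7% chased-only and 51.7% unchased-only, against 61.7% for windows in both. At 12 h the shares were 13.8% of 196 chased-only and 10.8% of 539 unchased-only windows and at 6 h 10.4% of 579 and 13.4% of 82, with intervals that overlapped. The octamer was in 12 of the 350 chased-only (3.43%, 1.97 to 5.90) and 2 of the 247 unchased-only windows of 36 h (0.81%, 0.22 to 2.90). Windows of neighbouring starts overlap, so these counts are not all independent.

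**Figure D4:**
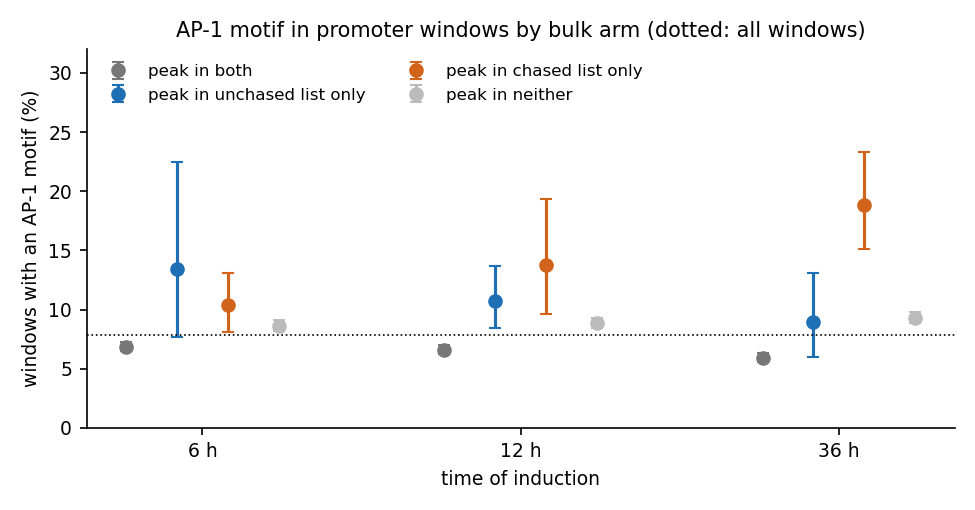
Share of promoter windows holding the AP-1 motif (vertical axis, percent, with Wilson 95% intervals) by the list or lists with a peak over them, at 6 h, 12 h and 36 h. At 36 h the windows with a peak in the chased list only stand at 18.9%, above the other 3 classes, and the dotted line marks the 7.81% of all windows.

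Single samples of a separate experiment gave the only spread between replicates. There MEF of the same genotype were induced for 14 h, and 3 samples were treated with aphidicolin, an inhibitor of replicative DNA polymerases, at 5 µg/mL from 4 h on. The labels give no EdU for the treated or the untreated samples, so they differ from the bulk arms in labelling as well as in time. Unchased-only sites of 12 h held a peak in 13.9%, 12.7% and 9.14% of cases in untreated replicates 1 to 3 and in 19.4%, 27.1% and 24.4% after aphidicolin. These are 11.9% ± 2.49 and 23.6% ± 3.92 (SD, n = 3), and the groups did not overlap (exact two-sided permutation test, p = 0.1, the smallest that 3 against 3 allow). Chased-only sites held one in 10.9%, 11.5% and 9.12% and in 20.8%, 29.5% and 26.2%, which are 10.5% ± 1.22 and 25.5% ± 4.37 (n = 3, same exact test, p = 0.1). Shared sites did so in 64.6% ± 1.81 untreated and 77.7% ± 2.99 treated (n = 3, exact p = 0.1), so all classes were called more often after aphidicolin.

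The treated lists were longer, with 148292 to 163947 peaks against 116939 to 129546, and the classes parted once all 6 lists were cut to 116939 peaks. Chased-only sites then held a peak in 8.14%, 9.00% and 9.12% of untreated and 10.6%, 11.0% and 11.1% of treated samples, 8.76% ± 0.54 and 10.9% ± 0.28 (n = 3, exact permutation p = 0.1, no overlap). Unchased-only sites did so in 10.1%, 9.47% and 9.14% and in 8.71%, 9.54% and 9.60%, 9.56% ± 0.47 and 9.28% ± 0.50 (n = 3, exact permutation p = 0.6), with overlapping groups. Shared sites kept a difference of 2.32 points. The difference between the classes was not itself tested.

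**Figure D5:**
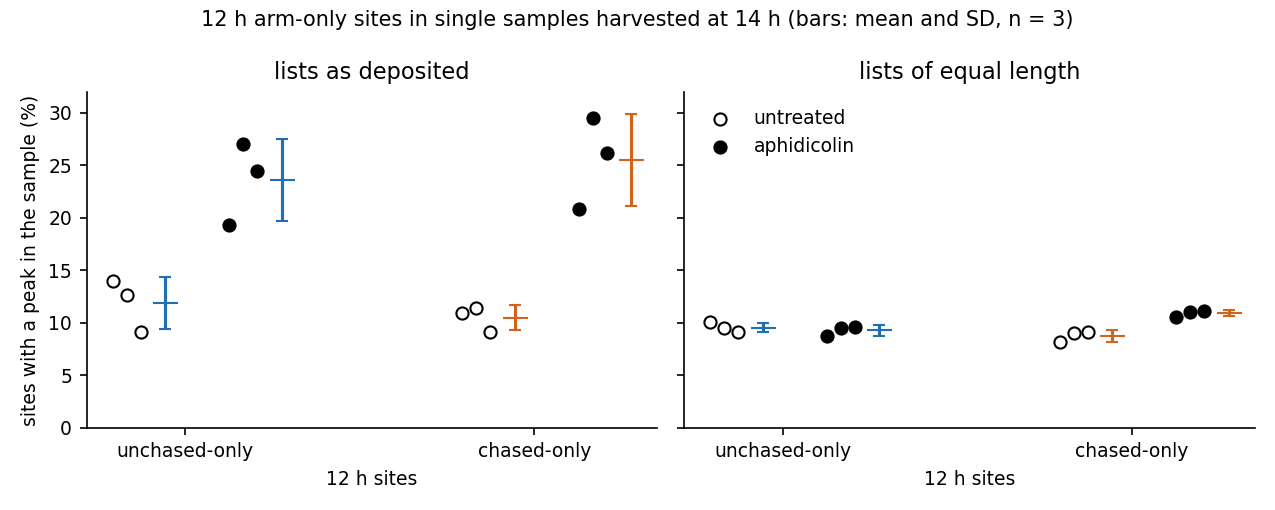
Share of the unchased-only and chased-only sites of 12 h (vertical axis, percent) with a peak in each untreated (open) and aphidicolin-treated (filled) sample of 14 h, with lists as deposited (left) and cut to 116939 peaks each (right). Bars are the mean and SD of 3 samples, and on the right the treated samples stand above the untreated ones for chased-only sites but not for unchased-only sites.

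Read counts of the same 6 libraries, deposited over regions called in all 3 samples of either group, covered 15.1% of the unchased-only, 17.0% of the chased-only and 71.8% of the shared sites. Library totals were 41183769 to 49440524 untreated and 55158844 to 78677381 treated. A region counted because it was called in the 3 samples of 1 group alone had to be high in that group, so no difference between the groups is drawn from these counts.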

How the data were processed

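ATAC-seq peaks of the unbound (bulk) DNA of MEF were compared between an unchased and a chased arm at 6 h, 12 h and 36 h. The submitters' processing notes name MACS2 2.2.0, Bowtie2 2.2.5, cutadapt 2.2.0, bedtools 2.26.0, bcl2fastq 2.19.1 and SAMtools 1.4.1, and the build mm10. Not given in the sources used here are their parameters and any shift of reads for the transposase cut. The authors deposited peak lists that give each peak a position and a score from the peak caller, 1 list per arm and time from 3 merged libraries per the peak names, and 1 list per sample of the 14 h experiment. The unchased lists were assigned by name and by elimination from the chased ones. For the 6 libraries of 14 h they deposited raw counts in 139000 regions, in columns whose numbers no source ties to a sample.

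Lists were compared with Python 3.11.15, numpy 2.4.6, pandas 2.3.3 and scipy 1.17.1. The overlap code was tested on simulated data. Genes are the 21883 protein-coding genes of the GRCm38.p6 table, which has no strand, so a gene end is either end of the model. Promoter windows matched 208 of 291 list genes. The samples of 14 h were compared with a two-sided exact permutation test, whose smallest p is 0.1. The labels do not say whether replicates are separate cultures, so each p reflects the spread of these samples alone, and that spread may be technical.

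The genes named are, per time and arm, those at the 5 highest arm-only peaks and the 5 with the largest net excess, up to 10 per arm with an excess of 2 or more at all 3 times, list genes with a gene end open in 1 arm only at 2 or more times, up to 3 per list, and a fixed set. The 18 gene lists and the members were chosen with earlier results of these data known. Alternatives were other overlaps, a score minimum of 100, lists of equal length, merged peaks, other windows and flanks, and leaving out samples. A common smallest width, and all alternatives for immediate early loci, X and AP-1 windows, were chosen after seeing the data. Replicates of the same number shared a direction of deviation in 1 of 3 numbers for each class of site, so the numbers were not taken to pair samples. One gene that the naming rule selects is not reported here.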

Additional observations from a re-analysis of the deposited data

Results flagged for a closer look

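The sign of several differences changed between the 3 times, and none of these changes could be tested with 1 list per arm and time. The chased list was longer than the unchased one by 25913 peaks at 6 h and by 5508 at 36 h, while at 12 h the difference was -19400 peaks. The chased-only share of peaks on X stood 4.08 and 3.05 points above that of the autosomes at 6 h and 12 h, and at 36 h the difference was -1.36 points. Chased-only peaks of 12 h were found at 36 h more often than unchased-only ones by 22.9 points, whereas for peaks of 36 h found at 60 h the difference was -6.44 points. The 36 h bulk and the 60 h sorted fractions differ in collection as well as in time, and the labels give no EdU for the fractions. The part of these differences in the change of sign was not tested.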

How the results depend on the processing

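Sharing is given for unchased peaks at 6 h, 12 h and 36 h, then for chased peaks. It was 92.7%, 75.6% and 88.5%, then 80.9%, 83.8% and 85.1%, with a reciprocal overlap of 50%, and 97.4%, 87.6% and 92.5%, then 85.8%, 92.6% and 89.5%, with a peak within 500 bp. With scores of at least 100 it was 97.9%, 86.8% and 92.3%, then 82.6%, 92.5% and 89.0%, and with lists of equal length 92.2%, 90.4% and 90.0%, then 91.4%, 87.5% and 90.0%. A common smallest width, an alternative chosen after seeing the data, gave 89.9% and 91.0% at 12 h and 36 h, then 88.7% and 89.1%, so that at 12 h the chased list became the less shared one, as it did with lists of equal length. Merging peaks within a list, or keeping chromosomes 1 to 19 and X, moved no share beyond its counting interval.

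The gene-end excess of shared peaks was 5.12 and 5.70 points (unchased, 6 h and 12 h) and 5.56, 5.31 and 6.70 points (chased, 3 times) with a window of 5 kb. In the unchased list of 36 h, 25.2% of shared and 16.5% of arm-only peaks lay within 5 kb. Within scores of at least 100 and below 200 the excess was 1.21, 1.37 and 1.68 points (unchased), then 0.44, 1.11 and 1.79 points (chased).

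Chased-only minus unchased-only presence kept its sign in each alternative run. At 12 h, 36 h and 60 h in turn it was 13.7, 24.2 and -3.82 points with a reciprocal overlap and 30.8, 27.1 and -2.59 points with lists of equal length. At 60 h it was -8.33 points within the score band and -7.18 points with the common width.

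Calls of genes, unchased then chased, were 41 (6 h), 1885 (12 h) and 421 then 1263 (36 h) without a flank, and 181 then 10235, 6772 then 1540 and 1406 then 4557 with a flank of 50 kb. With lists of equal length they were 915 then 1492, 1089 then 2309 and 1101 then 1243.

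The aphidicolin difference at unchased-only sites turned to -0.27 points (exact permutation p = 0.6) with lists of equal length. Leaving out 1 sample at a time gave 9.98 to 13.8 points there, 13.0 to 17.3 at chased-only and 11.7 to 14.7 at shared sites. With the replicate number as a block the differences were 11.7, 15.0 and 13.1 points (exact sign-flip p = 0.25, the smallest that 3 pairs allow).

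The X excess at 36 h was -0.25 points (-1.28 to 0.87) with scores of at least 100. The AP-1 difference at 36 h was 9.79 to 11.0 points in the 3 alternatives run. Except where the alternative itself uses fewer peaks or a wider window, the cause of these changes was not tested. The depth of the merged libraries is unknown, and its part in the arm-only peaks was not tested.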
